A study of Mus musculus with 2 samples.

Results

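The genes described here are the amino acid transporters of the SLC1, SLC3, SLC6, SLC7, SLC36, SLC38 and SLC43 families, taken by gene symbol from the 2 deposited gene tables of the study. The symbol rule found 50 genes among the 16428 that had a read in at least 1 library. Of these, 35 had 10 or more reads in either library and are described with their values. The other 15 stayed under 10 reads in both, and 16 further symbols of these families in RefSeq had no read in either table. The rule reads names only, so it also takes transporters of taurine, creatine, betaine and nucleobases, and Slc7a6os, a neighbour of Slc7a6 that encodes no transporter.

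Both groups were macrophages sorted from C57BL/6J mice, aged 6 to 8 weeks, that had received 500000 GFP+ MLL-AF9 leukaemia cells per mouse without irradiation. MLL-AF9 is a fusion oncogene that drives acute myeloid leukaemia (AML), and the recipients lived for 25 to 30 days. Macrophages were collected at day 15, and RNA-seq gave 1 library for bone marrow (marrow) and 1 for spleen. How the macrophages were gated, how many mice were pooled and whether GFP+ cells were sorted out is not given in the sources used here. No macrophages from mice without leukaemia were analysed here.

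Without replicates no p-value was computed, and every difference is one between these 2 libraries. Levels are in CPM, uniquely placed reads scaled to a common library size, with effective depths of 9405947 reads for marrow and 8457857 for spleen. Folds are ratios of CPM with exact Clopper-Pearson limits at 95%. These limits hold counting error alone and no spread between animals or library preparations. Amplified reads lacking molecular identifiers do not each stand for a molecule, so even counting error may be understated. A gene was called higher in a library when log2(CPM + 1) differed by at least 1, which is 2-fold on a scale that understates changes of low genes. In bulk RNA, fewer cells of a type and less RNA per cell cannot be told apart. All 21 macrophage identity markers checked had reads in both libraries, with summed levels of 874 CPM in marrow and 1914 CPM in spleen. Markers of other cell types were present too. The 20 neutrophil and granulocyte precursor markers summed to 51056 CPM in marrow and 2462 CPM in spleen. B cell markers summed to 742 and 6341 CPM and T cell markers to 377 and 2423 CPM in the same order.

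Amino acids cross membranes on carriers that differ in substrate, in driving ion and in membrane. Heteromeric transporters pair a light chain of the SLC7 family, which moves the substrate, with the heavy chain Slc3a2 (CD98), which carries the pair to the cell surface. Sodium-coupled SLC1 and SLC38 carriers load the cell with glutamine and other small neutral amino acids, which the exchangers can trade for leucine, arginine or cystine. Lysosomal SLC36 and SLC38 proteins release amino acids from digested protein and feed the mTORC1 growth pathway, a route that matters in macrophages because they degrade what they engulf.

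The transporters as a set were carried at nearly the same total in both libraries, while single members shifted in both directions. The 35 measured genes summed to 2079 CPM in marrow and 2048 CPM in spleen. They took 0.203% of the reads in marrow and 0.21% in spleen, counting all 50. Of the 35, 6 (17.1%), Slc43a3, Slc7a4, Slc7a8, Slc6a15, Slc7a5 and Slc36a4, were at least 2-fold higher in marrow, against 14.1% of the 12970 genes measured the same way. A further 3 (8.57%), Slc38a9, Slc1a3 and Slc6a19, were at least 2-fold higher in spleen, against 14.6% of all genes. The spleen count depended on low genes: adding 0.1 CPM in place of 1 before taking logs gave 7, while adding 5 CPM, or a floor of 10 CPM or 100 reads, gave 1. Adding 5 CPM gave 3 in marrow. The remaining 26 lay within 2-fold, 74.3% against 71.2% of all genes. Their median log2 ratio, marrow minus spleen, was -0.02 (order-statistic 95% interval -0.63 to 0.28), beside 0.03 over all measured genes. These shares lie near those of all genes, and the set is described below by its members.

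**Figure D1:**
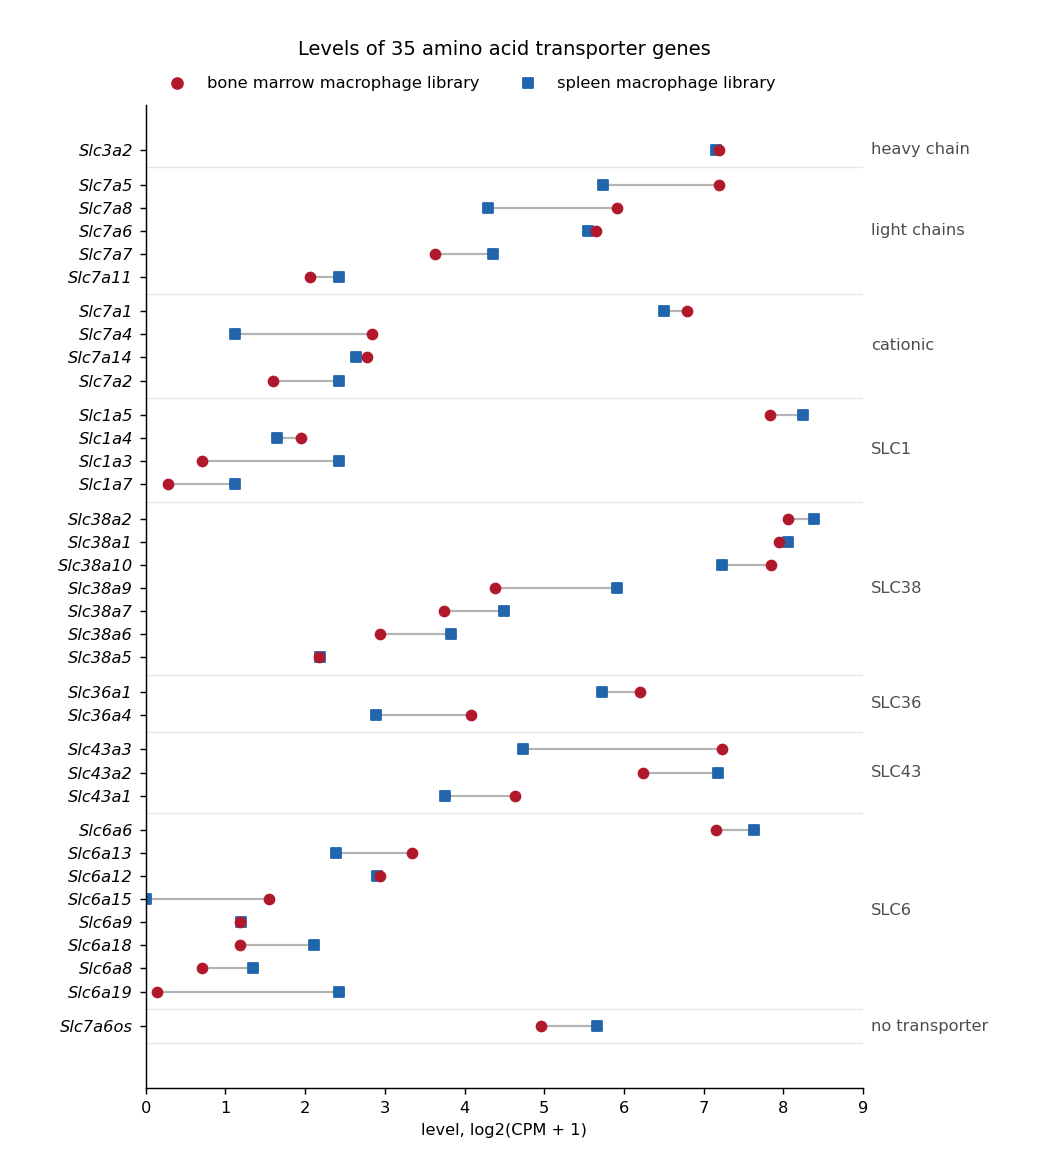
Level of each of the 35 measured genes as log2(CPM + 1), grouped by family, with marrow as red circles and spleen as blue squares (1 library each). Slc3a2, Slc7a6 and Slc38a1 nearly coincide, Slc43a3, Slc7a5 and Slc7a8 lie to the right in marrow, and Slc38a9 lies to the right in spleen.

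Promoter sequence is shown for the members past 2-fold that had at least 100 reads in a library and a RefSeq window, and for Slc7a11, the textbook target of the amino acid starvation factor ATF4. Each window runs 5′ to 3′ on the gene's strand from 250 bases before to 50 bases after the annotated start (RefSeq, GRCm38.p6). Capitals mark matches, on either strand, to the motifs searched: TGATGNAA (the C/EBP-ATF response element), TGACNNNGC (the antioxidant response element), CACGTG (the E-box) and CCAAT (the NF-Y box).
Slc7a8, higher in marrow, chr14:54781837-54782136, minus strand: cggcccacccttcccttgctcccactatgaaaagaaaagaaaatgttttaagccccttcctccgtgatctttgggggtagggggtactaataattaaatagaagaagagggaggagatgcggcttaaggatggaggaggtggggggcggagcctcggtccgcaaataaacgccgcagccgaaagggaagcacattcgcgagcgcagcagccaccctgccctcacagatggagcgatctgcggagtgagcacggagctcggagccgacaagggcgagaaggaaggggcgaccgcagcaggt
Slc36a4, higher in marrow, chr9:15709488-15709787, plus strand: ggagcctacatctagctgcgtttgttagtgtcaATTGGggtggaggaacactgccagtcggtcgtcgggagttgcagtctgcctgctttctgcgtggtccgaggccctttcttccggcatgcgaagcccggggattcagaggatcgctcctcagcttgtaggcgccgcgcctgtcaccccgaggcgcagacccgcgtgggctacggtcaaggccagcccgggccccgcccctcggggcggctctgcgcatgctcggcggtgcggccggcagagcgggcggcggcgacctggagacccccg
Slc38a9, higher in spleen, chr13:112660516-112660815, plus strand: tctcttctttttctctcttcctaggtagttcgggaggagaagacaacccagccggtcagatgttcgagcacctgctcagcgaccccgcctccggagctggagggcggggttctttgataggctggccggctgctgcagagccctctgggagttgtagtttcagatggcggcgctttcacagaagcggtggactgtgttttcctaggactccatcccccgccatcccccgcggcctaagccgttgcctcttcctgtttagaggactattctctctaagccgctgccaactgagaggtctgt
Slc7a11, low in both libraries, chr3:50443564-50443863, minus strand: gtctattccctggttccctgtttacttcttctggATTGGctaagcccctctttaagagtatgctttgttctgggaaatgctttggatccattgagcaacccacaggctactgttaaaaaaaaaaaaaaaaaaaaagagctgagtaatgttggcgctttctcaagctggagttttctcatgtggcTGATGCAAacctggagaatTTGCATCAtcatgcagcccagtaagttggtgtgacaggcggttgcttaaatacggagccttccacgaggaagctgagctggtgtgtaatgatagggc

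The Slc7a11 window held a pair of C/EBP-ATF elements in opposite orientation, at -66 and -47 from the start, and an NF-Y box at -216. Over the 25 measured members with a window, this element was found in Slc1a4, Slc7a11 and Slc7a7, in 4 of 40 windows (10%), and it was found in 3.97% of all 32851 windows. The antioxidant element was in 9 of the 40 windows (22.5%, against 12.4% of all), the E-box in 6 (15%, against 7.15%) and the NF-Y box in 12 (30%, against 37.4%). The windows of Slc7a8 and Slc38a9 held none of these letters, and that of Slc36a4 held an NF-Y box at -217. Slc43a3 and Slc7a5, past 2-fold with at least 100 reads in a library, had no window and were not searched. A match describes the letters and is not evidence of binding.

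Among the heteromeric transporters, the common heavy chain was level and the light chains differed in both directions. Slc3a2 was counted with 1369 reads in marrow and 1198 in spleen, 146 and 142 CPM. Its ratio was 1.03 (0.95 to 1.11), an interval that included equal levels. Slc3a1, the heavy chain of the kidney and gut cystine transporter, had 1 read in marrow and 6 in spleen.

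Slc7a5 (LAT1), which imports leucine and other large neutral amino acids in exchange for glutamine, had 1371 reads in marrow and 442 in spleen. Its levels were 146 and 52.3 CPM, 2.79-fold higher in marrow (2.50 to 3.11). A gene model on the opposite strand, Gm20388, overlaps Slc7a5, so its reads are uncertain. The same holds for the other overlapped genes named here, and for Slc6a6, Slc38a10, Slc7a2, Slc6a13 and Slc7a14, which annotated genes overlap too. Reads covered 99.0% of Slc7a5 in marrow and 97.4% in spleen. Slc7a8 (LAT2), a second exchanger of large and small neutral amino acids, went the same way. It had 555 reads in marrow and 158 in spleen, 59.0 and 18.7 CPM, a 3.16-fold difference (2.64 to 3.79). Per length, Slc7a8 stood at 0.350 of Slc7a5 in marrow (0.316 to 0.386) and at 0.309 in spleen (0.256 to 0.371), so the proportion of these carriers to each other was alike within counting error.

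The light chains that exchange cationic for neutral amino acids did not share that shift. Slc7a6 (y+LAT2) was at 49.3 CPM in marrow and 45.8 CPM in spleen, with an interval of the ratio from 0.94 to 1.24 that included equal levels. Slc7a7 (y+LAT1), an arginine exporter whose loss causes lysinuric protein intolerance in humans and which is prominent in macrophages, leaned to spleen. It had 107 reads in marrow and 165 in spleen, 11.4 and 19.5 CPM, a 1.71-fold difference towards spleen (1.34 to 2.21) that stayed within 2-fold. Oxa1l overlaps it on the opposite strand, so its reads are uncertain. Slc7a11 (xCT), the cystine-glutamate exchanger that supplies glutathione synthesis, was low with 30 reads in marrow and 37 in spleen. Its interval, 0.435 to 1.21, included equal levels. Annotated pseudogenes overlap Slc7a11 on both strands, so its reads are uncertain.

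Compared per length, with the deposited RPKM (reads scaled to gene length and to library reads), the balance of chains differed between the libraries. The 5 measured light chains summed to 72.8 RPKM in marrow and 41.7 RPKM in spleen, beside 50.6 and 51.5 RPKM for Slc3a2. Slc7a5 made up 55.7% of the light chain RPKM in marrow and 36.5% in spleen. Slc7a7 made up 6.66% in marrow and 20.9% in spleen, and Slc7a6 17.7% and 30.1%. The ratio of Slc7a5 to Slc3a2 within a library, which no scaling between libraries can move, was 0.802 in marrow (0.744 to 0.865) and 0.295 in spleen (0.264 to 0.330). Reads covered 76.2% of Slc3a2 in marrow and 80.7% in spleen, less than evenly placed reads would, so its RPKM may sit low against the light chains in both libraries.

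**Figure D2:**
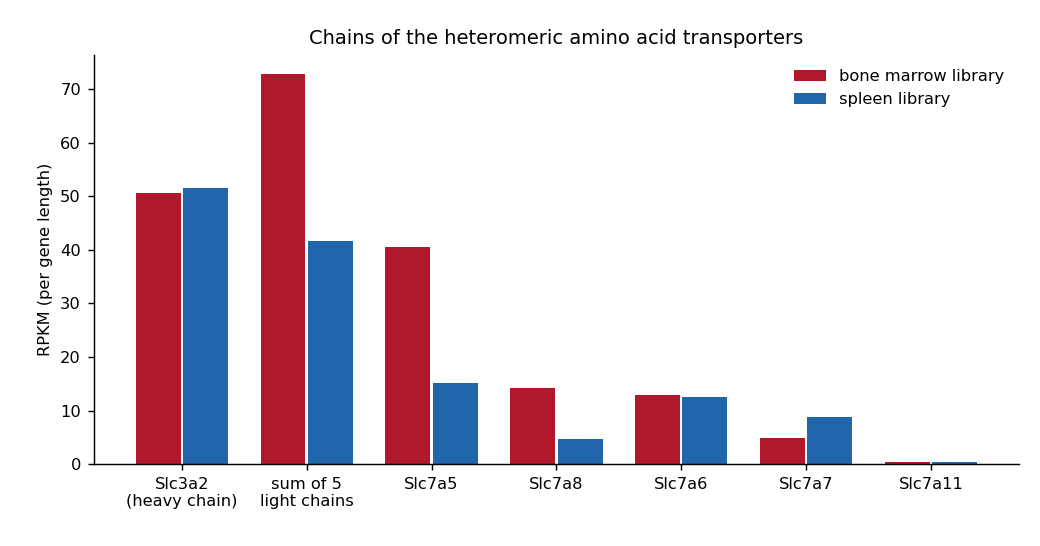
RPKM, a level per gene length, of the heavy chain Slc3a2, of the sum of its 5 measured light chains and of each light chain, with marrow in red left of spleen in blue (1 library each, no error bars). The heavy chain bars are level at 50.6 and 51.5 RPKM, while the light chain sum is 72.8 RPKM in marrow and 41.7 RPKM in spleen.

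The group of cationic carriers, which holds importers of arginine and lysine that need no heavy chain, was led by Slc7a1. Slc7a4 and Slc7a14 were placed in it by family and not by substrate. Slc7a1 (CAT1), the general arginine importer, had 1031 reads in marrow and 760 in spleen, 110 and 89.9 CPM, a ratio of 1.22 (1.11 to 1.34). Slc7a2 (CAT2), the inducible arginine importer of activated macrophages, was far rarer at 19 reads in marrow and 37 in spleen. Its difference of 2.17-fold towards spleen (1.21 to 3.99) was within 2-fold on log2(CPM + 1), at -0.83. Slc7a4 had 58 reads in marrow and 10 in spleen, 5.22-fold higher in marrow (2.64 to 11.4). On the annotation, the gene overlaps P2rx6 on the opposite strand, and the sources do not say whether counting used strand, so the Slc7a4 reads are uncertain. Slc7a14 had 55 reads in marrow and 44 in spleen, but these lay on 2.39% and 2.73% of the gene.

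The SLC1 family held the transporter with the highest level per length in both libraries. Slc1a5 (ASCT2), the sodium-coupled importer of glutamine, alanine, serine and cysteine, stood at 80.04 RPKM in marrow and 112 RPKM in spleen. It had 2125 reads in marrow and 2562 in spleen, 226 and 303 CPM, 1.34-fold higher in spleen (1.27 to 1.42) and within 2-fold. Slc7a5 was at 0.507 of Slc1a5 per length in marrow (0.473 to 0.542) and at 0.135 in spleen (0.122 to 0.15). Slc1a4 (ASCT1), a related carrier, had 27 reads in marrow and 18 in spleen, with an interval that included equal levels (0.716 to 2.60). Slc1a3 (GLAST), a glutamate importer known best from astrocytes, had 6 reads in marrow and 37 in spleen, 6.86-fold higher in spleen (2.87 to 19.9). A gene model on the same strand, Gm37310, overlaps Slc1a3, so its reads are uncertain. Slc1a7 had 2 reads in marrow and 10 in spleen, 5.56-fold higher in spleen (1.19 to 52.2) yet within 2-fold on log2(CPM + 1), and its reads lay on 4.13% of the gene in spleen.

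Among SLC38 carriers of the cell surface, Slc38a1, Slc38a2 and Slc38a5 had ratios between 0.797 and 0.989, marrow over spleen. Slc38a2 (SNAT2), the sodium-coupled alanine and glutamine importer that cells induce on amino acid shortage, had the highest read count of the set. It had 2504 reads in marrow and 2825 in spleen, 266 and 334 CPM, 1.25-fold higher in spleen (1.19 to 1.32). Slc38a1 (SNAT1), its neighbour in the genome and a glutamine importer, was at 246 CPM in marrow and 266 CPM in spleen, a ratio of 0.927 (0.874 to 0.983). Slc38a5 (SNAT5) had 33 reads in marrow and 30 in spleen and did not differ beyond counting error. Apart from these surface carriers, Slc38a10 was at 229 CPM in marrow and 149 CPM in spleen, 1.54-fold higher in marrow (1.43 to 1.65).

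The lysosomal carriers Slc38a9 and Slc38a7 leaned to spleen, and Slc38a9 passed 2-fold. Slc38a9, which senses arginine in the lysosome and signals to mTORC1 through the Rag GTPases, had 187 reads in marrow and 499 in spleen. Its levels were 19.9 and 59.0 CPM, 2.97-fold higher in spleen (2.50 to 3.53). On the annotation an antisense gene and a processed pseudogene overlap it, so its reads are uncertain, and they covered 55.5% of it in marrow and 85.8% in spleen. Slc38a7 (SNAT7), the exporter of glutamine from lysosomes, had 116 reads in marrow and 182 in spleen, 1.74-fold higher in spleen (1.37 to 2.22) and within 2-fold. Apart from these lysosomal carriers, Slc38a6 was at 6.70 CPM in marrow and 13.2 CPM in spleen. It was 1.98-fold higher in spleen (1.44 to 2.74) and just inside the limit at -0.89.

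The measured SLC36 carriers leaned the other way. Slc36a1 (PAT1), a lysosomal partner of mTORC1 signalling, had 681 reads in marrow and 437 in spleen, 72.4 and 51.7 CPM, a ratio of 1.40 (1.24 to 1.58). Slc36a4 (PAT4) had 150 reads in marrow and 54 in spleen, 15.9 and 6.38 CPM, 2.50-fold higher in marrow (1.82 to 3.48). Per length, Slc38a9 stood at 0.163 of Slc36a1 in marrow (0.138 to 0.192) and at 0.676 in spleen (0.594 to 0.771). Slc36a2 and Slc36a3, the genome neighbours of Slc36a1, stayed under 10 reads.

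Of the 3 SLC43 genes, Slc43a3 was past 2-fold and the other two were just inside it. Slc43a3, a carrier of purine nucleobases rather than amino acids, had 1399 reads in marrow and 217 in spleen. Its levels were 149 and 25.7 CPM, 5.80-fold higher in marrow (5.02 to 6.72), and it was the one transporter gene past 4-fold in that direction on log2(CPM + 1), where 4.42% of all genes were. In the spleen direction it was Slc6a19, where 4.09% of all genes were. Slc43a1 (LAT3), a sodium-independent exit and entry route for branched-chain amino acids and phenylalanine, lies 1 protein-coding gene away from Slc43a3. It had 224 reads in marrow and 106 in spleen, 23.8 and 12.5 CPM, 1.90-fold higher in marrow (1.5 to 2.42) and within 2-fold. Slc43a2 (LAT4), which has the same kind of substrates, went the opposite way with 702 reads in marrow and 1217 in spleen. Its levels were 74.6 and 144 CPM, 1.93-fold higher in spleen (1.76 to 2.12), within the limit at -0.94, and an antisense gene overlaps it. Among carriers of large neutral amino acids, Slc7a5 was at 3.99 times Slc43a2 per length in marrow (3.64 to 4.37) and at 0.741 times in spleen (0.663 to 0.827).

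**Figure D3:**
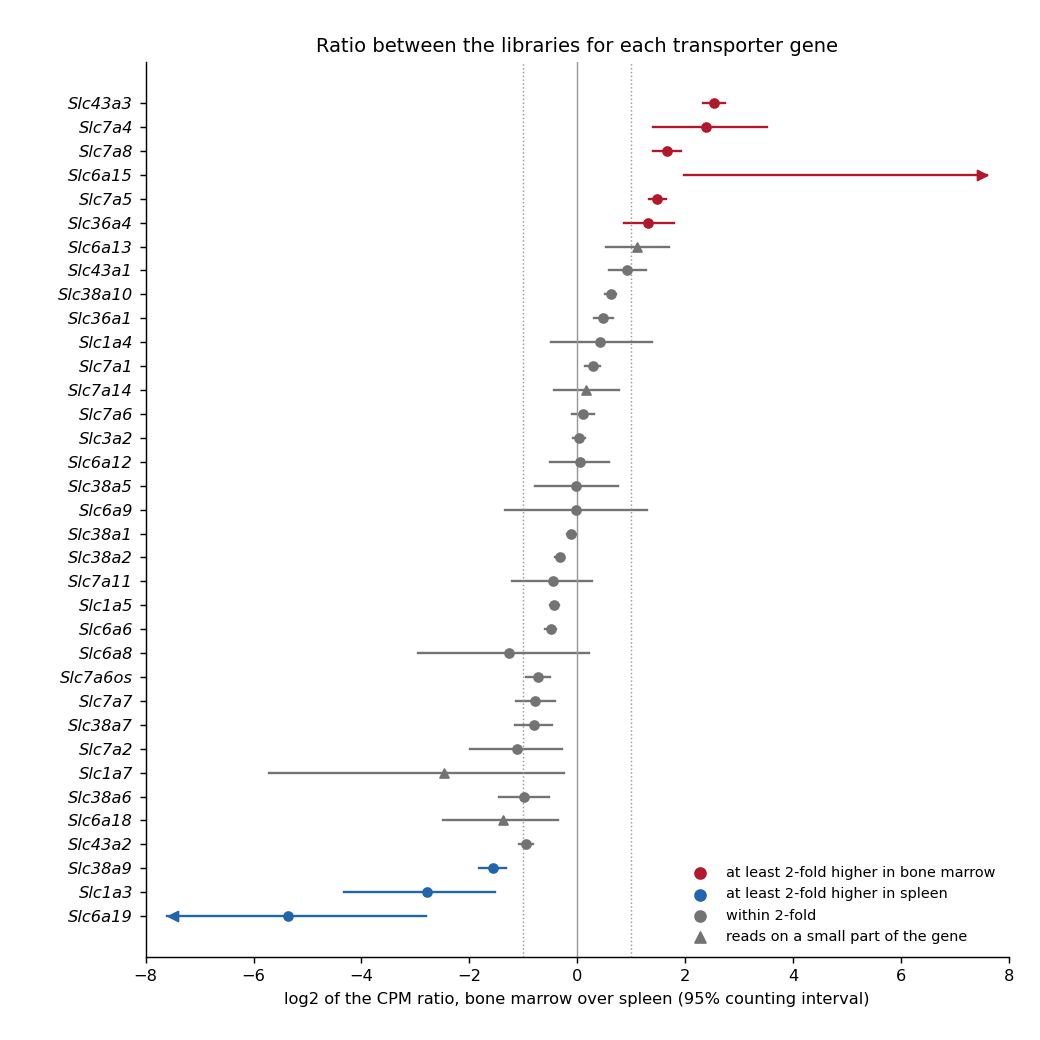
Log2 ratio of CPM, marrow over spleen, with the 95% counting interval, for the 35 measured genes in order of the ratio on log2(CPM + 1), which sets the colours. Dotted lines mark 2-fold, an arrowhead marks an interval that runs past the axis or has no upper end, and triangles are the 4 genes whose reads lay on a small part of their length.

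SLC6 members other than the taurine transporter were rare. Slc6a6, which imports taurine, a membrane and volume protectant abundant in leukocytes, had 1326 reads in marrow and 1674 in spleen. Its levels were 141 and 198 CPM, 1.40-fold higher in spleen (1.31 to 1.51). Slc6a15 (B0AT2), an importer of branched-chain amino acids and proline, had 18 reads in marrow and 0 in spleen. Set against the floor of 3 reads it was 5.4-fold higher in marrow, and its lower counting limit was 3.95-fold. Slc6a19 (B0AT1), the neutral amino acid importer of gut and kidney epithelium, had 1 read in marrow and 37 in spleen, 41.1-fold higher in spleen (6.94 to 1669). An antisense gene overlaps it, so strand leaves its reads uncertain. Slc6a12, a betaine and GABA carrier, was level at 6.70 CPM in marrow and 6.50 CPM in spleen. Slc6a8, the creatine importer, had 6 reads in marrow and 13 in spleen, and Slc6a9, a glycine importer, had 12 and 11. Both had intervals that included equal levels, and B4galt2 and Ccdc24 overlap Slc6a9 on the opposite strand. The 8 measured SLC6 genes summed to 162 CPM in marrow and 219 CPM in spleen, most of it Slc6a6.

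For 4 of the 35 genes the reads lay on a small part of the gene, so their counts are uncertain as levels of the whole gene. Genes with 1 read had a covered length of 49 bases, within 1 base, which gives the read length and the share that evenly placed reads would cover. Slc7a14 had 55 reads on 212 of its 8869 bases in marrow, where even placement would cover 26.2%. Slc6a18 had 28 reads on 86 of 4314 bases in spleen. Slc6a13 had 86 reads on 27.2% of its length in marrow, where even placement would cover 85.9%. Slc1a7, with 10 reads on 124 bases in spleen, was the fourth. None of the 4 was past 2-fold on log2(CPM + 1), though the plain CPM ratio was 2.15 towards marrow for Slc6a13, 2.59 towards spleen for Slc6a18 and 5.56 towards spleen for Slc1a7. The other 31 genes were covered over more than 0.5 of the even share.

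**Figure D4:**
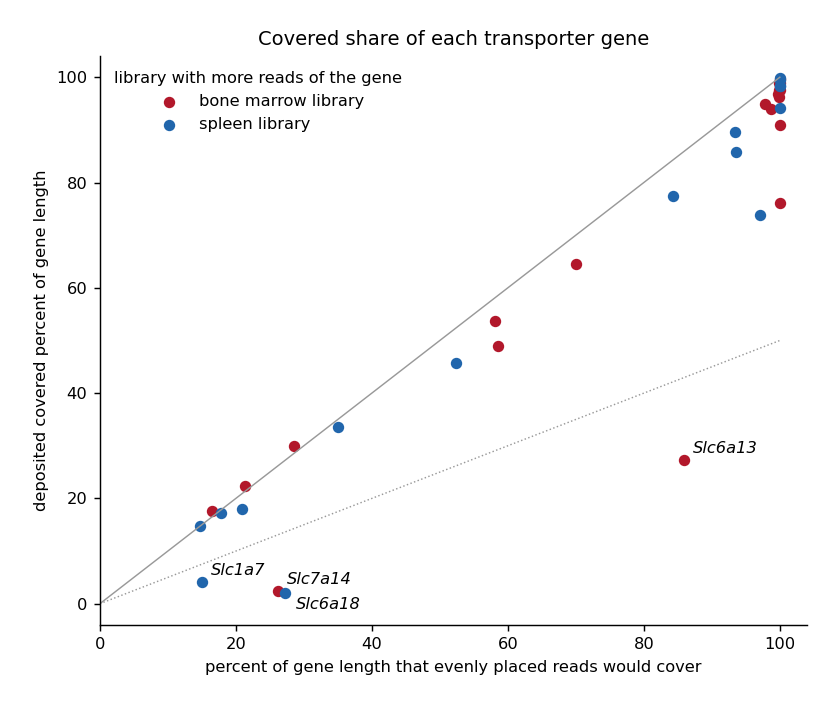
Percent of gene length covered by reads, as deposited, against the percent that evenly placed reads of 49 bases would cover, for each of the 35 genes in the library with more reads. Most points lie near the solid line of equality, and Slc6a13, Slc7a14, Slc6a18 and Slc1a7 lie under the dotted line at 0.5 of it.

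Slc7a6os, an RNA polymerase II nuclear import factor by its yeast counterpart, is the member that is no transporter. It had 284 reads in marrow and 420 in spleen, 1.64-fold higher in spleen (1.41 to 1.92), beside level Slc7a6 next to it in the genome.

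Ordered by RPKM, Slc1a5 came first in both libraries and Slc38a2 second, and the ranks below diverged. In marrow Slc38a2 at 56.0 RPKM and Slc43a3 at 55.9 RPKM could not be told apart by counting error. They were followed by Slc3a2 at 50.6, Slc38a10 at 48.7 and Slc7a5 at 40.5 RPKM, of which the first pair overlapped. In spleen Slc3a2 was the third at 51.5 RPKM, followed by Slc38a1 at 35.1, Slc7a6os at 33.3, Slc38a10 at 33.2 and Slc6a6 at 32.8 RPKM, a run whose neighbours did not differ beyond counting error. Slc43a3 had rank 3 in marrow and rank 12 in spleen, at 10.1 RPKM. Slc7a5 had rank 6 in marrow and rank 9 in spleen, at 15.2 RPKM.

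Restricting the set to the 20 genes with at least 100 reads in a library left 4 higher in marrow (Slc43a3, Slc7a8, Slc7a5 and Slc36a4) and 1 higher in spleen (Slc38a9). These are 20% and 5% of the 20, against 13.8% and 13.1% of the 9884 genes with as many reads. The median size of their log2 ratio, whatever its direction, was 0.71, beside 0.54 for those 9884 genes. Of the 35 genes, 9 had an interval that included equal levels. Within 2-fold, 5 genes had an interval wholly towards marrow, among them the unevenly covered Slc6a13. Another 12 had it wholly towards spleen, among them the unevenly covered Slc6a18 and Slc1a7, and Slc7a6os, which is no transporter. The share of all genes with such intervals was not computed, so these counts cannot show whether the set leans. Across the 35 genes, which share their libraries and depth and are not replicates, levels on log2(CPM + 1) had a Pearson's r of 0.91 between marrow and spleen, beside 0.86 across all measured genes.

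Genes around the transporters were read from 7 lists, whose shares stand beside the 14.1% of all measured genes that were higher in marrow and the 14.6% that were higher in spleen. Of 21 measured amino acid carriers of other families, 4 (19.0%) were higher in marrow and 5 (23.8%) in spleen (median log2 ratio -0.09). The 5 included all 4 SLC15 carriers, which move histidine and short peptides out of endolysosomes or into cells. Slc15a4 was at 48.2 CPM in marrow and 124 CPM in spleen, and Slc15a2 at 6.59 and 36.8 CPM. Slc66a1, the lysosomal exporter of cationic amino acids, was 4.07-fold higher in spleen (2.93 to 5.75), at 5.00 CPM in marrow and 20.3 CPM in spleen. Slc18a2, a vesicular monoamine carrier of basophils, mast cells and platelets, was at 65.3 CPM in marrow and 5.20 CPM in spleen. Markers of basophils, mast cells and eosinophils summed to 2880 CPM in marrow and 127 CPM in spleen, and their part in this was not tested.

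Of 40 measured amino acid sensing and mTORC1 genes, 2 (5%) were higher in marrow and 6 (15%) in spleen, the second share being near that of all genes (median 0.10). The 6 included the sestrins, of which Sesn2 is a cytosolic leucine sensor. Sesn1 was at 42.7 CPM in marrow and 126 CPM in spleen, Sesn2 at 9.04 and 27.1 CPM, and Sesn3 at 10.6 and 64.7 CPM. Tfeb, the transcription factor of lysosome genes, was 2.60-fold higher in spleen (2.31 to 2.94).

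Of 23 measured amino acid starvation response genes, 5 (21.7%) were higher in marrow and 1 (4.35%) in spleen (median 0.32, beside 0.03 over all genes). Asns, which makes asparagine, was at 53.4 CPM in marrow and 6.62 CPM in spleen, 8.06-fold higher in marrow (6.11 to 10.8). The serine synthesis enzymes Phgdh and Psat1 were higher in marrow too, by 2.73-fold (2.50 to 2.99) for Phgdh and by 3.48-fold (3.11 to 3.91) for Psat1. Vldlr had the largest ratio of the list, at 35.5 CPM in marrow and 0.71 CPM in spleen. The 17 genes within 2-fold (73.9%, against 71.2% of all genes) included Atf4 itself, at 253 CPM in marrow and 227 CPM in spleen. Ddit4, an inhibitor of mTORC1, was at 27.6 CPM in marrow and 179 CPM in spleen.

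Enzymes that use the carried amino acids were divided. In the cystine and glutathione list, 2 of 21 (9.52%) were higher in marrow and 5 (23.8%) in spleen (median 0.29). Gsr, glutathione reductase, was at 496 CPM in marrow and 85.4 CPM in spleen, and Anpep, a surface aminopeptidase of myeloid cells, at 7.87 and 116 CPM. Of 20 glutamine and glutamate enzymes, 4 (20%) were higher in marrow and 1 (5%) in spleen (median 0.36), with Prodh, which degrades proline, at 52.7 and 5.08 CPM. Asns was counted among these 4 and also among the 5 starvation response genes. Of 13 arginine and polyamine enzymes, 3 (23.1%) were higher in marrow and 1 (7.69%) in spleen (median 0.58), and Srm, spermidine synthase, was at 140 CPM in marrow and 46.1 CPM in spleen. Of 20 tryptophan, tyrosine and branched-chain enzymes, 3 (15%) were higher in marrow and 6 (30%) in spleen (median -0.08). The 6 included the kynurenine pathway enzymes Kynu, Kmo and Haao, and Kmo was at 15.4 CPM in marrow and 129 CPM in spleen.

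**Figure D5:**
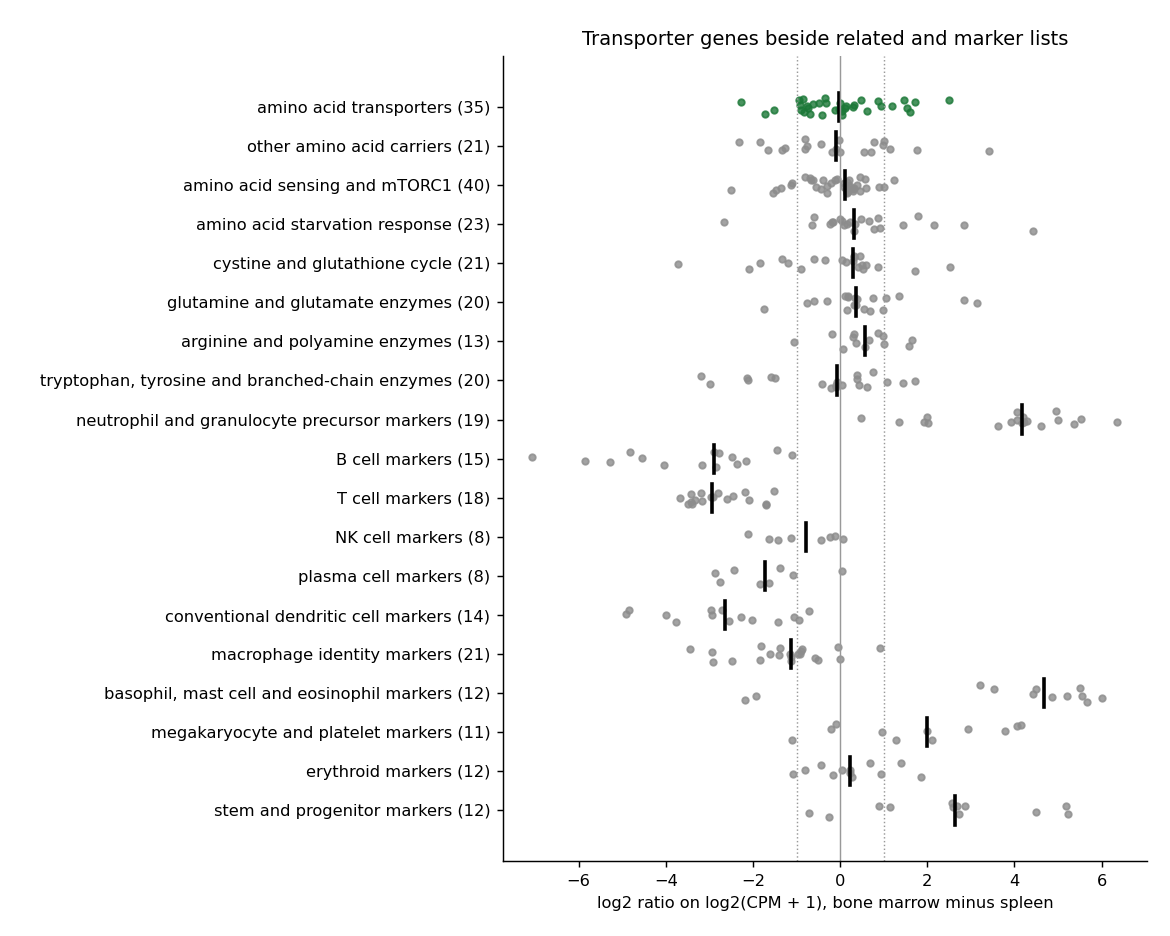
Log2 ratio on log2(CPM + 1), marrow minus spleen, of each measured gene of the transporter set (green), 7 related lists and 11 marker lists, with the number measured in brackets and a black bar at the list median. The transporter median is -0.02, while marker lists of other cell types reach 4.67 towards marrow and -2.94 towards spleen.

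The composition of the 2 libraries moved along with these results. Of 19 measured neutrophil and granulocyte precursor markers, 18 were higher in marrow (median 4.18), and Ly6g was at 0 in both libraries. Stem and progenitor markers had 9 of 12 higher in marrow, with sums of 1813 CPM there and 466 CPM in spleen, and Mecom was at 0 in spleen. Basophil, mast cell and eosinophil markers had 10 of 12 higher in marrow and 2 in spleen, and megakaryocyte and platelet markers 7 of 11 and 1, with sums of 528 CPM in marrow and 59.0 CPM in spleen. Gp6 was at 0 in both. These stood in the same direction as Slc43a3, Slc7a5, Slc7a8 and Slc36a4.

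In the other direction, with Slc38a9, Slc1a3 and Slc6a19, all 15 measured B cell markers and all 18 T cell markers were higher in spleen (medians -2.90 and -2.94), and Ighd was at 0 in both libraries. Conventional dendritic cell markers had 12 of 14 higher in spleen, with sums of 285 CPM in marrow and 1507 CPM in spleen. Plasma cell markers had 7 of 8, with 560 and 2302 CPM, and NK cell markers 4 of 8, with 185 and 340 CPM. Macrophage identity markers had 12 of 21 higher in spleen and 0 in marrow (median -1.13). Erythroid markers were mixed, with 2 of 12 higher in marrow and 1 in spleen, and sums of 390 and 238 CPM. The part of these cell types, and of the transplanted leukaemia cells, in the transporter differences was not tested. Whether reads of the stem, progenitor and granulocyte precursor markers came from leukaemia cells was not tested either.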

How the data were processed

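RNA was sequenced from macrophages of 2 tissues, with 1 library each. The authors deposited a table per library whose columns, per the file headers, are an Entrez identifier, the uniquely placed read count, gene length, percent of length covered and RPKM. Aligner, counting program, strand setting, build and annotation: not given in the sources used here. The deposited counts sum to the header totals (9625763 in marrow, 8264712 in spleen). Unlisted genes therefore had 0 reads, and a floor of 3 reads equals 0.319 CPM in marrow and 0.355 CPM in spleen. Deposited RPKM was recomputed to within 6.74e-06 percent.

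Tables were joined on the identifier. Library sizes were multiplied by TMM factors of 0.977 (bone marrow) and 1.02 (spleen), from edgeR 4.0.16 under R 4.3.3. Ratios were taken on log2(CPM + 1) for genes with at least 10 reads in either library. List symbols (330, of which 1 had no identifier) were matched through RefSeq, GRCm38.p6, and gene overlaps were read from the GENCODE annotation of GRCm38. Members and lists were chosen with earlier results of these data known. Some genes stand in more than 1 list, among them Asns, Gata2, Flt3 and Hmox1, so the lists are not independent. Every member with 10 reads is described, and from each list the 3 largest ratios and 2 most abundant genes could be named. Phgdh, Psat1 and Tfeb were named after their values were seen. The procedure was tested on simulated counts, drawn with counting error alone and with known changes placed above the lowest read counts. That test does not cover spread between animals, uneven coverage or calls at the lowest counts.

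Other settings tried were size factors of DESeq2 (version 1.42.0), unscaled library totals, RPKM ratios, scaling without markers of other cell types, pseudocounts of 0.1 and 5, no read floor or one of 10 CPM, a 4-fold rule, current RefSeq symbols, and a set without SLC6, Slc43a3 and Slc7a6os. A floor of 100 reads and a set without the 4 unevenly covered genes were chosen after seeing the data.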

Additional observations from a re-analysis of the deposited data

How the results depend on the processing

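No paired analysis was possible because each tissue had 1 library, and for the same reason no library could be left out. The counts of transporters past 2-fold, 6 towards bone marrow and 3 towards spleen, depended on how low genes were handled. With a pseudocount of 0.1 there were 7 in spleen and 7 in bone marrow, and with a pseudocount of 5 there were 3 in bone marrow and 1 in spleen. A floor of 10 CPM, or of 100 reads, left 1 in spleen. Under the 4-fold rule 1 gene was higher in bone marrow (Slc43a3) and 1 in spleen (Slc6a19). Other settings gave 4 to 6 in bone marrow and 2 to 4 in spleen. The median log2 ratio ran from -0.16 (no floor) to -0.01 over the settings run on it. Of the 35 folds, 5 left their interval with a pseudocount of 5 (Slc43a3, Slc7a4, Slc6a15, Slc1a3 and Slc6a19) and none under the other settings run on folds, with Slc6a15 set against the floor of 3 reads. No fold past 2-fold reversed. Depth limits genes under 100 reads, and no setting stands in for replicate animals.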
